A study of Xenopus laevis with 6 samples.

Results

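The genes described here encode basic helix-loop-helix (bHLH) transcription factors, with the Notch effectors of the family left out. They were chosen by symbol alone: a gene belonged if its platform symbol, without the .L or .S ending, matched a list of bHLH gene names, and the brightest of its probe sets with 1 symbol stood for it. This gave 55 genes of 7531, carried by 73 probe sets and by 39 names once the endings are set aside; 14 of the genes had several probe sets. Xenopus laevis is allotetraploid, and the endings .L and .S tell apart the gene copies carried by its longer and shorter chromosome sets; each copy counts as a gene. The match also took in hif1an.S, which encodes an asparagine hydroxylase that acts on hypoxia-inducible factor and is not a bHLH protein; every count of called genes below was the same over the 54 others. The bHLH genes ptf1a, bhlha15, srebf1, ahr and twist1 were not analysed here, and neither were 3 probe sets that carried several symbols, those of tcf3, mxd4 and twist1.

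RNA came from the pancreas buds, liver buds and stomach buds of Xenopus laevis embryos of mixed sex at stage 42, when the tadpole swims. No treatment or altered genotype is named for any group. Each organ had 2 Affymetrix arrays, from 2 separate isolations called replicates 1 and 2 below, and the aim was to find genes that mark the young pancreas. The buds held endoderm together with mesoderm, so each value is an average over cell types, and fewer cells of a type cannot be told apart from less RNA per cell.

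Many bHLH proteins bind the E-box motif in DNA as dimers. E proteins are broadly expressed and pair with tissue-specific partners, such as the proneural, endocrine, muscle and mesodermal factors; Id proteins lack the DNA-binding basic region and take E proteins out of action. Myc proteins pair with Max through an added leucine zipper and drive growth, ribosome production and proliferation, with Mxd and Mxi1 proteins as competitors for Max. PAS-domain members include oxygen-regulated factors and factors of the circadian clock. In the pancreas the family is best known for PTF1A, a regulator of acinar enzyme genes, and for NEUROG3 and NEUROD1 in endocrine cells. PTF1A works with an E protein and RBPJ or RBPJL.

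Array intensities were on a linear scale with a median of 100 on each array. Over all probe sets they ran from 0.105 to 23202, so no marker was at 0. On each array 11.9% to 13.7% of probe sets were under 16, and no detection calls were given, so no gene could be classed as present or absent. Organ markers followed the labels. The marker lists were chosen with earlier results of these data known, so their sums are no independent check of organ identity. The summed intensity of 9 pancreas marker genes was 72292 to 101787 in pancreas against 399 to 674 in liver and 3988 to 5205 in stomach. The sum of 7 liver markers was 33279 to 46262 in liver, 239 to 1483 in pancreas and 982 to 1470 in stomach. That of 4 stomach markers was 7181 to 12584 in stomach, 48.0 to 490.1 in pancreas and 50.05 to 63.65 in liver. The 2 pancreas arrays thus differed widely in their liver and stomach marker sums. Differences were tested with limma on log2 intensity over all 15491 probe sets, and "called" means a Benjamini-Hochberg adjusted p under 0.05. Precision is limited by the 2 arrays per organ. Each p-value rests on how far the isolations differ, pooled over the 3 organs and moderated by the spread of all probe sets. No other kind of replicate enters it. The 3 pairs of organs share arrays and are not independent of each other.

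Few bHLH genes were called, and the share was close to or below that of all genes. Between pancreas and liver 4 of 55 were called, which is 7.27%, against 7.22% of all genes; 3 were higher in pancreas (myc.L, myc.S and id2.S) and 1 was higher in liver (epas1.S). Between pancreas and stomach 3 of 55 were called (5.45%, against 9.31% of all genes), namely myc.L, myc.S and id2.S, each higher in pancreas. Between liver and stomach 3 of 55 were called (5.45%, against 11.2% of all genes): epas1.S and tcf4.S were higher in liver and mycn.L was higher in stomach. The test over the 3 organs together called 4 of 55 (7.27%, against 14.8% of all genes), with adjusted p from limma of 0.00875 for myc.S, 0.0125 for id2.S, 0.0145 for epas1.S and 0.0186 for myc.L. The count of calls was therefore at or under the background in each comparison. The median log2 difference over the 55 genes was -0.02, 0.16 and 0.23 for pancreas minus liver, pancreas minus stomach and liver minus stomach, where all genes had 0.07, 0.12 and 0.04. The median size of the log2 difference regardless of sign was 0.41, 0.50 and 0.42, against 0.41, 0.45 and 0.38 over all genes.

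**Figure D1:**
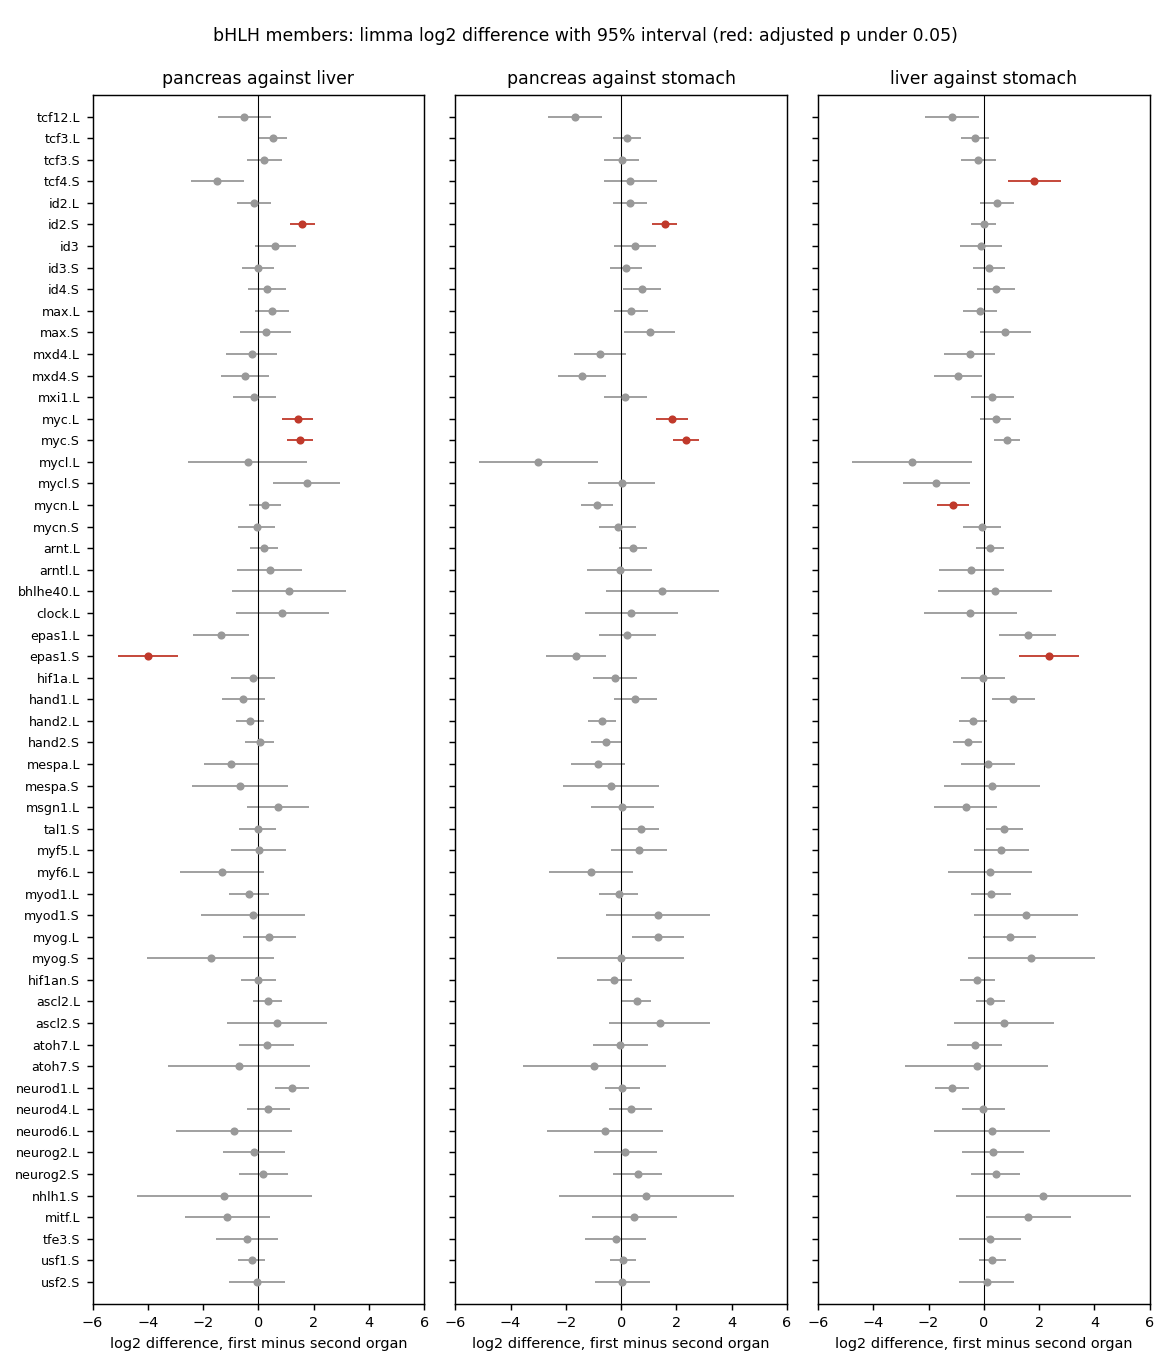
Log2 difference of each of the 55 genes in the 3 pairs of organs, with limma's 95% interval; points right of 0 are higher in the first organ of the pair, and red points have an adjusted p under 0.05. The red points are 4, 3 and 3 in the 3 panels, with myc.L, myc.S and id2.S right of 0 in both pancreas panels and epas1.S farthest to the left in the liver panel.

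In the Myc and Max network, the largest role group, 3 of 11 genes were called in some pair: myc.L, myc.S and mycn.L. The share of all genes called in some pair was not computed. Counts of called genes per role group, here and below, therefore do not show that a group stands out. MYC is the growth-promoting factor of the network, and both copies of its gene were highest in pancreas. Intensities of myc.S were 2843 and 2608 in pancreas, 931 and 1012 in liver, and 532 and 548 in stomach. The myc.L probe set read 938 and 833 in pancreas, 382 and 289.6 in liver, and 242 and 254 in stomach. For both copies the 2 pancreas arrays lay above all 4 other arrays, and the liver arrays lay above those of stomach. In pancreas myc.S was 2.81-fold higher than in liver (95% interval 2.02 to 3.89; limma adjusted p = 0.0180) and 5.04-fold higher than in stomach (3.64 to 6.999; adjusted p = 0.0100). For myc.L the folds were 2.66 over liver (1.79 to 3.95; limma adjusted p = 0.0321) and 3.57 over stomach (2.41 to 5.30; adjusted p = 0.0184). Liver over stomach was 1.80-fold for myc.S, short of the threshold (limma adjusted p = 0.0547). It was called with 16 added to each intensity (limma adjusted p = 0.0231), an intensity trend and robust prior (0.00926) or a filter on low intensities (0.0156). It was not with the replicate number as a block (0.0613) or quantile normalization (0.0834). The other probe set of myc.L and the other 2 of myc.S were called in both pancreas comparisons too, with folds of 2.29 to 2.74 over liver and 3.58 to 4.52 over stomach. Probe sets of such near-identical copies can pick up each other's transcripts, so they do not count as separate evidence.

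Several myc calls did not hold with 1 array fewer, while the folds moved little. The myc.L difference from liver lost its call without any 1 of the 6 arrays (limma adjusted p 0.0745 to 0.156), although the fold stayed between 2.32 and 3.05. Against stomach, myc.L lost its call without pancreas replicate 1 (0.109), pancreas replicate 2 (0.0761), stomach replicate 1 (0.106) or stomach replicate 2 (0.0813). The myc.S difference from liver lost its call without pancreas replicate 1 (0.107), pancreas replicate 2 (0.0886), liver replicate 1 (0.0959) or liver replicate 2 (0.0674). Against stomach, myc.S lost it without pancreas replicate 1 (0.0712) or stomach replicate 1 (0.0727) and kept a fold of 4.83 to 5.27 throughout.

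**Figure D2:**
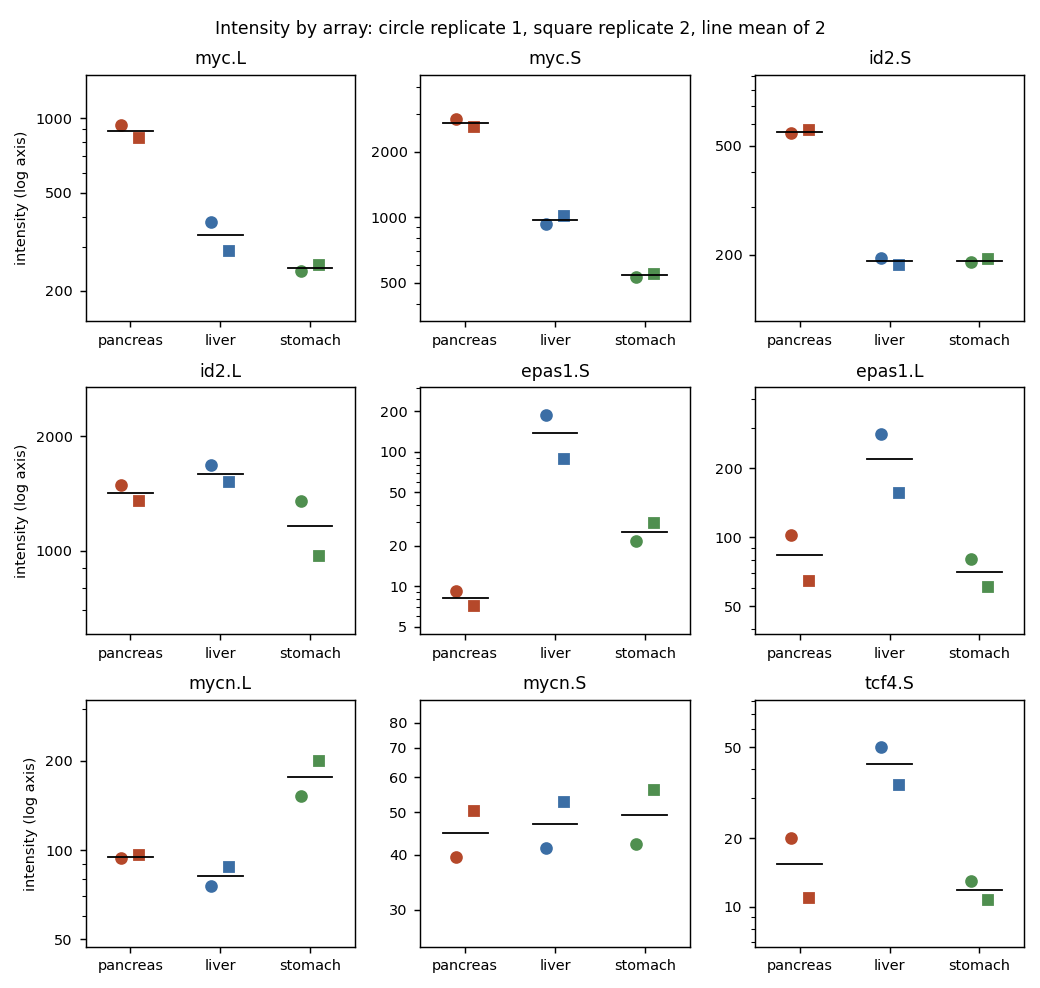
Intensity of the called genes, and of the second copy where it was measured and not called, by organ on log axes; circles are replicate 1, squares replicate 2 and lines the mean of the 2 arrays. Both pancreas points of myc.L, myc.S and id2.S lie above all others in their panel, whereas id2.L overlaps between pancreas and stomach and mycn.S between all organs; epas1.S is lowest in pancreas at 9.29 and 7.07.

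The 22 measured genes of a list of MYC growth genes, mostly nucleolar and ribosome-assembly factors, were set beside myc. This list and the gene lists below were chosen with earlier results of these data known. Their counts, medians and signs are therefore no independent evidence. Of these, 3 were called higher in pancreas than in liver and 1 lower (7.22% of all genes were called in this pair). Against stomach 6 were called higher in pancreas and none lower (9.31% of all genes). Between liver and stomach 2 were called higher in liver (11.2% of all genes). The list's median log2 difference was 0.81 for pancreas minus liver and 0.95 for pancreas minus stomach, against 0.07 and 0.12 over all genes. The sign was positive for 20 and 21 of the 22, against 54.8% and 57.2% of all genes. The ribosome assembly gene bop1.L read 957 and 1161 in pancreas, 349 and 326 in liver, and 363 and 453 in stomach. Its folds were 3.12 over liver (limma adjusted p = 0.0225) and 2.60 over stomach (adjusted p = 0.0316). The nucleolar gene nop16.S was 2.36-fold higher than in liver (limma adjusted p = 0.0447) and 2.55-fold higher than in stomach (adjusted p = 0.0335). Telomerase reverse transcriptase, tert.L, exceeded its stomach level by 2.67-fold in pancreas (limma adjusted p = 0.0279). The gene that went the other way was ldha.S, lactate dehydrogenase A, for which liver exceeded pancreas by 7.09-fold (limma adjusted p = 0.0152) and stomach by 5.37-fold (adjusted p = 0.0171). These called members do different jobs, and whether their levels follow myc was not tested. Without any 1 of the 6 arrays the list's calls numbered 0 to 2 between pancreas and liver and 0 to 1 between pancreas and stomach.

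**Figure D3:**
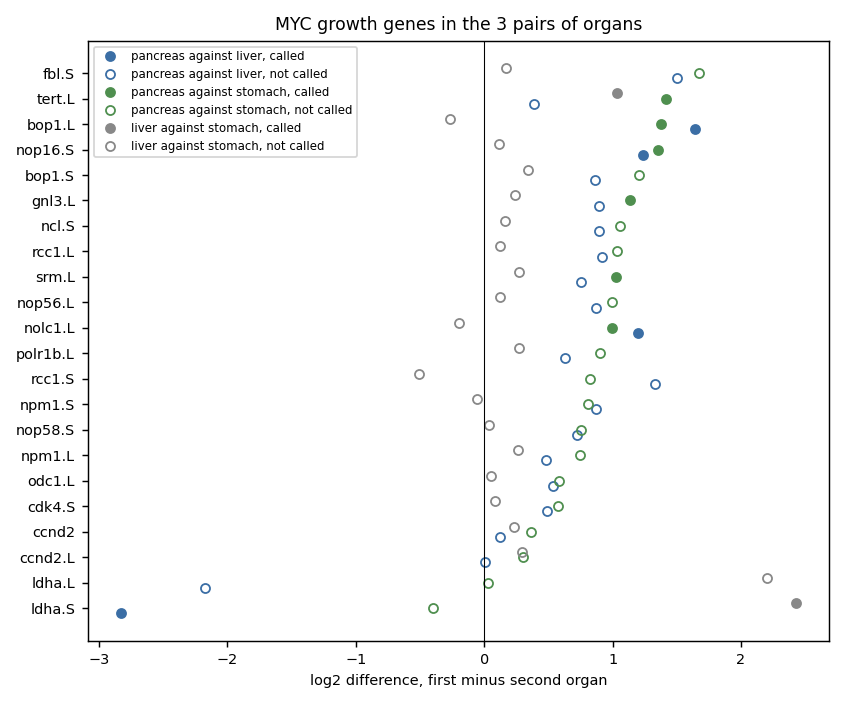
Log2 difference of the 22 measured MYC growth genes in the 3 pairs of organs; filled points have a limma adjusted p under 0.05. Most points of the pancreas pairs lie right of 0, with ldha.S at -2.83 and ldha.L at -2.17 for pancreas minus liver as the exceptions on the far left.

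The other Myc genes were arranged differently. N-Myc, a relative of MYC best known from neural and other embryonic progenitors, was read by mycn.L at 93.8 and 96.0 in pancreas, 75.6 and 87.5 in liver, and 153 and 200.2 in stomach. Both stomach arrays lay above the other 4. Stomach exceeded liver by 2.15-fold (95% interval 1.44 to 3.20, limma adjusted p = 0.0457) and pancreas by 1.84-fold (adjusted p = 0.0835, not called). The pancreas difference became a call with 16 added to each intensity (limma adjusted p = 0.0464), an intensity trend and robust prior (0.0420) or a filter on low intensities (0.0259). It did not with the replicate number as a block (0.0664) or quantile normalization (0.0908). The liver difference lost its call without any 1 of the 6 arrays (adjusted p 0.0994 to 0.178). The second copy, mycn.S, ran from 39.5 to 56.2 over the 6 arrays with the organs overlapping. Beside mycn.L, the summed intensity of 13 neuron markers was 2525 to 3339 in stomach against 604 to 673 in pancreas and 525 to 699 in liver, and that of 7 smooth muscle markers was 7324 to 10926 against 812 to 1306 and 617 to 693; their part in the difference was not tested.

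L-Myc had large differences that missed the threshold. mycl.L read 13.1 and 5.75 in pancreas, 5.15 and 25.1 in liver, and 55.2 and 86.05 in stomach. Both stomach arrays lay above the others, and stomach over pancreas was 7.95-fold with a wide interval of 1.78 to 35.4 (limma adjusted p = 0.103). mycl.S instead read 107 and 128 in pancreas, 21.9 and 55.7 in liver, and 104 and 129 in stomach, so pancreas and stomach were alike in range and liver was lower. Pancreas over liver was 3.34-fold (limma adjusted p = 0.106) and stomach over liver 3.31-fold (adjusted p = 0.0968). Both mycl.S differences became calls with 16 added to each intensity (limma adjusted p = 0.0397 and 0.0345) or the trend and robust prior (0.0375 and 0.0349). The filter on low intensities also made both calls (0.0326 and 0.0319). Neither was called with the replicate number as a block (0.0721 and 0.0652) or quantile normalization (0.101 and 0.0836). Without liver replicate 2 the folds were 5.33 and 5.29. With 16 added to each intensity, mycl.L was called in stomach over pancreas (3.39-fold, limma adjusted p = 0.0218) and over liver (2.89-fold, adjusted p = 0.0330). Neither mycl.L difference was called with the trend and robust prior (0.0529 and 0.0875), the replicate number as a block (0.126 and 0.170) or quantile normalization (0.107 and 0.131). Both pancreas readings of mycl.L and that of liver replicate 1 were under 16, so its folds depend on how low values are treated.

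Max, the shared partner, and its other partners were not called in any pair. max.L ran from 101 to 170.3 over the 6 arrays and max.S from 67.0 to 209.8. The Myc antagonist gene mxd4.S read 35.7 and 19.8 in pancreas and 62.3 and 81.7 in stomach, a 2.68-fold difference toward stomach with a limma adjusted p of 0.0741. With 16 added to each intensity this mxd4.S difference was called (limma adjusted p = 0.0347), but not with the trend and robust prior (0.0509). mxd4.L ran from 53.8 to 119 and mxi1.L, another antagonist, from 41.6 to 67.9.

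Among the Id inhibitors, 1 copy of id2 was called and the other was not. id2.S read 558 and 570.2 in pancreas, 195 and 183 in liver, and 187 and 193 in stomach. The 2 pancreas arrays stood well above the rest, and liver and stomach overlapped. In pancreas id2.S was 2.99-fold higher than in liver (95% interval 2.18 to 4.11; limma adjusted p = 0.0144) and 2.97-fold higher than in stomach (2.16 to 4.08; adjusted p = 0.0166). Its copy id2.L read 1491 and 1349.5 in pancreas, 1679 and 1514 in liver, and 1353 and 969.6 in stomach, which put liver rather than pancreas on top, with no call in any pair. Leaving out pancreas replicate 1, pancreas replicate 2, liver replicate 1 or liver replicate 2 ended the id2.S call against liver (limma adjusted p 0.0896, 0.0859, 0.0764 and 0.0655). Leaving out pancreas replicate 1, pancreas replicate 2, stomach replicate 1 or stomach replicate 2 ended the call against stomach (adjusted p 0.10001, 0.0792, 0.0973 and 0.0751). The fold stayed between 2.90 and 3.08 over liver and between 2.93 and 3.01 over stomach.

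The remaining Id genes had no call in any pair. The probe set annotated id3, which carries no copy ending, ran from 1150 to 2312, id3.S from 1169 to 1655, and id4.S from 175 to 357. For id4.S, pancreas over stomach was 1.70-fold with an unadjusted limma p under 0.05 that did not survive adjustment.

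E proteins, the common partners, had 1 call among 4 genes. tcf4.S, which encodes the E protein E2-2, read 19.9 and 10.9 in pancreas, 50.2 and 34.3 in liver, and 12.95 and 10.7 in stomach. Both liver arrays lay above the others, and liver over stomach was 3.53-fold (95% interval 1.81 to 6.87; limma adjusted p = 0.0479). Both stomach readings were under 16, and with 16 added to each intensity the difference was 2.08-fold and still called. This call is fragile: the other 3 probe sets of tcf4.S gave log2 differences of -1.50, -0.43 and 0.59 for liver minus stomach, none called, so the probe sets of the gene do not share a direction. It ended under an intensity trend with a robust prior (limma adjusted p = 0.0734) and under quantile normalization (0.0610). It also ended without liver replicate 1 (0.179), liver replicate 2 (0.0925), stomach replicate 1 (0.152) or stomach replicate 2 (0.178). Liver over pancreas was 2.82-fold (adjusted p = 0.0905), and was called with the replicate number as a block (0.0435). That difference was not called with 16 added to each intensity (0.0553), the trend and robust prior (0.130) or quantile normalization (0.131).

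The other E protein genes did not pass. tcf3.L, which encodes E12 and E47, read 598 and 622 in pancreas, 435 and 411 in liver, and 485 and 579 in stomach. tcf3.S ran from 120 to 174. tcf12.L, encoding HEB, read 22.7 and 10.8 in pancreas and 49.4 and 50.3 in stomach, a 3.19-fold difference toward stomach (limma adjusted p = 0.0656). The difference was called with 16 added to each intensity (adjusted p = 0.0271). It was not with the replicate number as a block (0.0791), the trend and robust prior (0.0639) or quantile normalization (0.0872).

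Among the PAS-domain and clock genes, 1 of 7 was called. epas1 encodes HIF2 alpha, an oxygen-regulated factor known from endothelium. epas1.S read 9.29 and 7.07 in pancreas, 189 and 89.1 in liver, and 21.6 and 29.5 in stomach. The organs did not overlap, with liver highest and pancreas lowest; stomach over pancreas was 3.11-fold and not called (limma adjusted p = 0.0856). In liver it was 16.004-fold above pancreas (95% interval 7.56 to 33.9; limma adjusted p = 0.0127) and 5.14-fold above stomach (2.43 to 10.9; adjusted p = 0.0335). Both pancreas readings were under 16, so the size of the first fold depends on how low values are treated: with 16 added to each intensity it was 6.07-fold. The liver-over-stomach call was lost with the replicate number as a block (limma adjusted p = 0.0520). It was also lost without pancreas replicate 1 or 2 (0.0687 each), liver replicate 1 (0.0834), stomach replicate 1 (0.152) or stomach replicate 2 (0.101). The call against pancreas ended without pancreas replicate 1 (0.0663), pancreas replicate 2 (0.0722) or liver replicate 1 (0.0513).

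The second copy was high in liver as well. epas1.L read 103 and 64.8 in pancreas, 281.5 and 155 in liver, and 80.5 and 60.7 in stomach, so both liver arrays lay above the rest while pancreas and stomach overlapped. Liver over pancreas was 2.57-fold (95% interval 1.26 to 5.22; limma adjusted p = 0.124) and liver over stomach 2.99-fold (1.47 to 6.09; adjusted p = 0.0819). Neither was called. Both were with the replicate number as a block (limma adjusted p = 0.0422 and 0.0262), the trend and robust prior (0.0483 and 0.0253) or the filter on low intensities (0.0426 and 0.0246). With 16 added to each intensity only liver over stomach was called (0.0327, against 0.0606 over pancreas), and with quantile normalization neither was (0.123 and 0.0734). Markers of other cells moved in the same samples: the summed intensity of 9 endothelium markers was 1362 to 1525 in liver, 917 to 997 in pancreas and 711 to 773 in stomach, and 6 of the 9 were called higher in liver than in stomach but 0 of 9 higher than in pancreas. The sum of 7 erythrocyte markers was 39588 to 42893 in liver, 10841 to 11316 in pancreas and 7294 to 8002 in stomach. The sum of 8 leukocyte markers was 1001 to 1479 in liver, 286 to 331 in pancreas and 169 to 252 in stomach, with 2 of the 8 called higher in liver than in pancreas and 4 higher than in stomach. The part of these cells in the epas1 differences was not tested.

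None of the other 6 PAS-domain and clock genes was called. hif1a.L, encoding the alpha subunit of hypoxia-inducible factor, ran from 347 to 572, and its dimer partner arnt.L from 129 to 194. The core clock genes clock.L and arntl.L, whose products dimerise, ran from 7.41 to 30.7 and from 20.2 to 52.2. bhlhe40.L, a clock-linked repressor, read 347 and 193 in pancreas, 194 and 75.5 in liver, and 181 and 46.8 in stomach, with replicate 1 above replicate 2 in each organ. Its pancreas and stomach readings did not overlap, and pancreas over stomach was 2.81-fold without a call (limma adjusted p = 0.316), 1.92-fold within replicate 1 and 4.12-fold within replicate 2. Of 17 hypoxia response genes 1 was called: ndrg1.L, a stress-response gene, was above its liver level by 3.19-fold in pancreas (limma adjusted p = 0.0172) and by 3.18-fold in stomach (adjusted p = 0.0136). Of all genes 7.22% were called between pancreas and liver, 9.31% between pancreas and stomach and 11.2% between liver and stomach. Those shares also stand beside the clock and aryl hydrocarbon counts below. The median log2 difference of the hypoxia list was -0.08, 0.00 and -0.01 in the 3 pairs. Its count between pancreas and liver was 0 without either pancreas or either liver replicate and 4 with the filter on low intensities. Between liver and stomach it was 0 without liver replicate 2 or either stomach replicate, 3 with the replicate block and with quantile normalization, and 4 with 16 added, the filter or the trend. Of 9 circadian clock genes 1 was called, tef.S, which was lower in pancreas than in liver by 2.95-fold (limma adjusted p = 0.0387) and lower than in stomach by 3.18-fold (adjusted p = 0.0310). The clock list's call against liver was lost without either pancreas or either liver replicate, and that against stomach without any 1 of the 6 arrays. The list of aryl hydrocarbon response genes held 3 measured genes. Of these, 2 were called higher in liver than in pancreas and 2 higher in liver than in stomach, and 1 was called higher in pancreas than in stomach. The first count became 0 without any 1 of the 6 arrays, the second became 1 without either liver or either stomach replicate, and the third became 0 without pancreas replicate 1 or stomach replicate 1. For cyp1a1.L, a detoxification enzyme gene, liver exceeded pancreas by 4.995-fold (limma adjusted p = 0.0358), and for cyp1a1.S by 2.95-fold (adjusted p = 0.0286).

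Of the 10 proneural and endocrine genes none was called, and 7 had a mean intensity under 50. neurod1.L came closest to the threshold and is singled out here after its values were seen; NEUROD1 drives late endocrine and neuronal differentiation. It read 179.7 and 146 in pancreas, 62.7 and 79.2 in liver, and 142 and 174 in stomach. Pancreas and stomach overlapped and both lay above liver. Pancreas over liver was 2.30-fold (95% interval 1.49 to 3.54, limma adjusted p = 0.0575) and stomach over liver 2.23-fold (1.45 to 3.43, adjusted p = 0.0501). Both missed the threshold by a small margin in the fit on all 6 arrays without a block or filter. Whether neurod1.L was called under the alternative settings is not given here. Among 14 endocrine genes, 6 were called higher in pancreas than in liver (7.22% of all genes were called in this pair). Between liver and stomach 6 were called higher in stomach (11.2% of all genes). Between pancreas and stomach 3 were called higher in pancreas and 1 in stomach (9.31% of all genes). The 6 pancreas-against-liver calls became 3 without liver replicate 1, and 4 without liver replicate 2 or either pancreas replicate; the 6 between liver and stomach became 2 without either stomach replicate, 3 without liver replicate 1 and 4 without liver replicate 2 or either pancreas replicate. The 4 between pancreas and stomach became 0 without pancreas replicate 1 or stomach replicate 1 and 2 without pancreas replicate 2. The insulin genes ins.S and ins.L exceeded their liver levels by 129-fold and 58.9-fold in pancreas (limma adjusted p = 0.00553 and 0.00351). scg3.L, encoding a secretory granule protein, exceeded its liver level by 34.4-fold in stomach (limma adjusted p = 0.00588). The neuron markers were higher in stomach, as given above for mycn.L, and their part was not tested.

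The rest of that group stayed low. neurod4.L ran from 58.3 to 108, neurog2.S from 35.4 to 77.3 and atoh7.L from 24.1 to 50.3. neurod6.L, neurog2.L, ascl2.L, ascl2.S, atoh7.S and nhlh1.S ran between 1.24 and 50.9. nhlh1.S, with readings from 1.24 to 25.4, had the widest intervals in the plot of log2 differences.

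PTF1A itself was not analysed here, but a list of PTF1 partners, other regulators and acinar genes was. Whether PTF1A regulates these genes was not tested. Of 21 measured genes of that list, 13 were called higher in pancreas than in liver (7.22% of all genes were called in this pair). Against stomach 14 were called higher in pancreas (9.31% of all genes), and none was called lower in either pair. Between liver and stomach 3 were called higher in liver and 4 in stomach (11.2% of all genes). The counts fell in each fit with 1 array left out. Such fits have fewer arrays, and the weight of a single array was not told apart from that. Between pancreas and stomach the 14 became 0 without pancreas replicate 1 or stomach replicate 1, 8 without pancreas replicate 2 and 7 without stomach replicate 2. Between pancreas and liver the 13 became 5 without liver replicate 1 and 8 without liver replicate 2 or either pancreas replicate. Between liver and stomach the 7 became 2 without stomach replicate 1 and 4 without any other array. The median log2 difference was 2.27 over liver and 2.77 over stomach. rbpj.S, which encodes a PTF1 subunit, read 1601 and 1264 in pancreas, 307 and 335 in liver, and 430.0 and 440.0 in stomach. Pancreas exceeded liver by 4.44-fold (limma adjusted p = 0.0109) and stomach by 3.27-fold (adjusted p = 0.0184). cpa1.L, the gene of a digestive carboxypeptidase, exceeded its liver level by 468-fold in pancreas (limma adjusted p = 0.00307). Some of these genes also serve as the pancreas markers above.

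The 7 mesoderm and blood genes had no call. An unadjusted limma p under 0.05 in at least 1 pair was seen for 5 of them. Over all genes 26.6%, 28.7% and 25.9% had such a p in the 3 single pairs, and the share with it in any pair was not computed. hand2.L and hand2.S, copies of a factor of heart, neural crest and gut mesoderm, were highest in stomach: hand2.L read 194 and 164 there against 105 and 116 in pancreas, and hand2.S read 443 and 438 against 329 and 275. The differences were 1.62-fold and 1.46-fold and did not pass adjustment. That of hand2.L was called with the filter on low intensities (limma adjusted p = 0.0387). It was not with 16 added to each intensity (0.0713) or the trend and robust prior (0.0618). Nor was it with the replicate number as a block (0.103) or quantile normalization (0.0966). The smooth muscle markers given above were also highest in stomach, and their part was not tested. hand1.L, its relative, read 76.2 and 101 in liver against 44.2 and 40.1 in stomach, a 2.09-fold difference that was not called. tal1.S, a factor of blood and endothelial progenitors, ran from 83.6 to 107 in pancreas and liver and read 49.8 and 65.5 in stomach. Its second probe set put liver 2.20-fold above pancreas (limma adjusted p = 0.0617), whereas the brightest put them level at 1.02-fold. The early mesoderm genes mespa.L, mespa.S and msgn1.L ran between 6.73 and 70.2.

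None of the 6 muscle determination genes was called. myf5.L, myf6.L, myod1.L, myod1.S, myog.L and myog.S, which set up skeletal muscle, ran between 1.71 and 81.1, and 5 of the 6 had a mean under 50. myog.L had the one unadjusted limma p under 0.05 among them, 2.53-fold higher in pancreas than in stomach, with 25.2 and 32.6 against 16.01 and 8.06. The liver-minus-stomach difference of myod1.S became a call only when stomach replicate 1 was left out (limma adjusted p = 0.0496). The summed intensity of 9 skeletal muscle markers was 551 to 601 in pancreas, 1156 to 1282 in liver and 1773 to 2408 in stomach.

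The leucine zipper genes outside the Myc network, 4 in all, had no call. usf1.S and usf2.S, encoding ubiquitous E-box factors, ran from 366 to 494 and from 87.2 to 167. tfe3.S, a regulator of lysosome genes, ran from 116 to 235. mitf.L, the pigment cell factor that also belongs to the lysosome family, read 13.25 and 15.1 in pancreas, 32.8 and 29.4 in liver, and 5.41 and 19.3 in stomach. Liver over stomach was 3.04-fold (limma adjusted p = 0.191) and became a call without stomach replicate 2 (adjusted p = 0.0372), while the second probe set of mitf.L pointed the other way, 4.001-fold toward stomach (adjusted p = 0.176). The sum of 2 pigment cell markers was 29.8 to 46.2 in liver, 7.57 to 28.2 in pancreas and 6.87 to 14.0 in stomach, and its part was not tested. Of 17 lysosome genes 3 were called higher in liver than in stomach (11.2% of all genes were called in this pair). Between pancreas and liver 2 were called higher in liver (7.22% of all genes). Between pancreas and stomach 1 was called higher in stomach (9.31% of all genes). Leaving out any 1 of the 6 arrays brought each of these lysosome counts to 0, whereas the filter on low intensities gave 5 in each pair, and the replicate block gave 4 in place of 1 between pancreas and stomach. The median log2 difference of the 17 lysosome genes was -0.56 for pancreas minus liver, with 0 positive, against 54.8% of all genes. It was -0.22 for pancreas minus stomach (7 positive, against 57.2%) and 0.58 for liver minus stomach (15 positive, against 53.1%). Among the called lysosome genes was ctsb.L, the cathepsin B gene, highest in liver (2.67-fold over stomach and 2.32-fold over pancreas, limma adjusted p = 0.0265 and 0.0497). Of 11 genes of sterol and fatty acid synthesis, which SREBP factors of this family regulate, 2 were higher in liver than in pancreas and 1 was higher in stomach than in pancreas. Between liver and stomach 1 was higher in each. The shares of all genes given for the lysosome list stand beside these counts too. Of these synthesis genes, the 2 called between pancreas and liver became 1 without either stomach replicate and 0 without any other array. The 1 between pancreas and stomach became 0 without any 1 of the 6. The 2 between liver and stomach became 0 without liver replicate 1 or stomach replicate 1 and 1 without liver replicate 2 or stomach replicate 2.

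Both copies were measured for 15 of the gene names, which allowed the ratio of .L to .S to be compared between organs. This comparison was added after the data were seen. Of the 15, 1 was called between pancreas and liver (against 1.38% of 1017 genes with both copies), 0 between pancreas and stomach (2.95%) and 0 between liver and stomach (5.11%), by limma on the log2 ratio. For epas1 the log2 ratio of .L over .S was higher in pancreas than in liver by 2.64 (95% interval 1.74 to 3.54; limma adjusted p = 0.0455), since epas1.S differed more between those organs than epas1.L. Both pancreas readings of epas1.S were under 16, and with 16 added to each intensity the difference was 1.40 (limma adjusted p = 0.0371). The call ended with the replicate number as a block (adjusted p = 0.0580) and without any 1 of the arrays (0.0516 to 0.166). For id2 the ratio was lower in pancreas than in liver by a log2 of -1.75 (limma adjusted p = 0.0597) and than in stomach by -1.26 (adjusted p = 0.0801), neither called, so a difference in behaviour between id2.L and id2.S was not established at this threshold. With 16 added to each intensity both id2 ratios were called (adjusted p = 0.0146 and 0.0377). For mycl the ratio was lower in pancreas than in stomach by -3.00 (limma adjusted p = 0.0721) and than in liver by -2.13 (adjusted p = 0.133). With 16 added both mycl ratios were called (adjusted p = 0.0145 and 0.0250), as was the mycn ratio between liver and stomach (0.0441, against 0.0769 without it). None of these id2, mycl and mycn ratios was called with the replicate number as a block (limma adjusted p 0.0580 to 0.163). For myc the ratio changed by -0.08 between pancreas and liver, with a 95% interval of -0.74 to 0.58, and by -0.50 between pancreas and stomach, with an interval of -1.16 to 0.16. As said above for myc, probe sets of near-identical copies can pick up each other's transcripts. A ratio near no change therefore does not show that the copies behave alike.

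**Figure D4:**
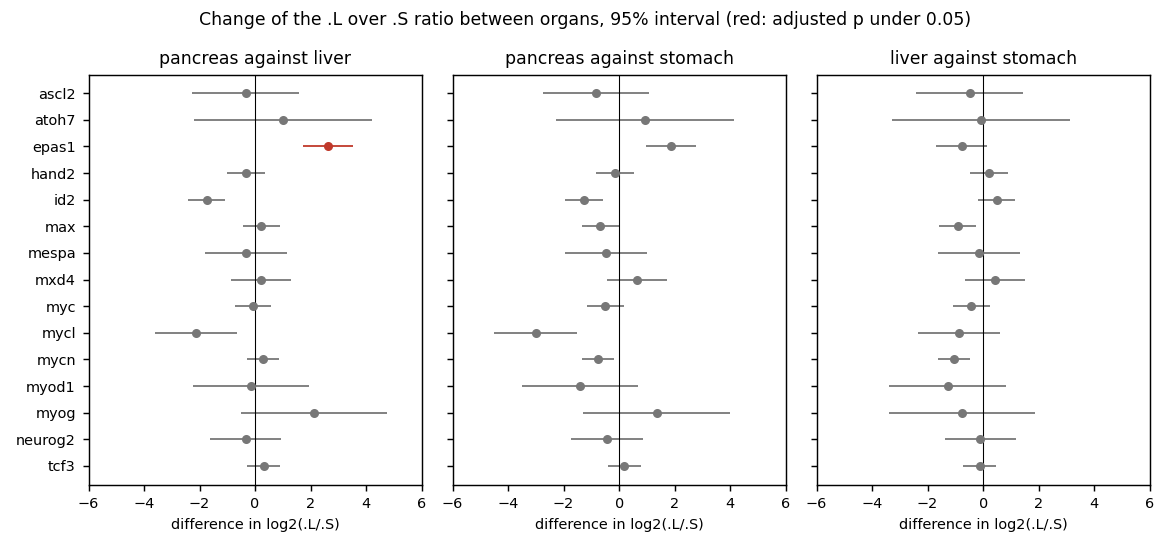
Difference between organs in the log2 ratio of the .L over the .S copy for the 15 gene names with both copies, with limma's 95% interval; red marks an adjusted p under 0.05. epas1 at 2.64 for pancreas minus liver is the only red point, and the intervals of myc include 0 in each panel.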

How the data were processed

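The authors deposited one table of linear intensity values, 15611 probe sets by 6 arrays. Per the submitters' processing notes RMA was used, of no stated version, and the design text adds refinement in Expressionist. Steps beyond these, not given in the sources used here, are unknown. Rows of control probe sets (120) were dropped. Gene names came from the platform annotation: 9304 probe sets had 1 symbol, 195 had several and 5992 had none, and 54 of the 55 bHLH genes were found by gene ID in RefSeq. Log2 intensities of 15491 probe sets were fitted with limma 3.58.1 under R 4.3.3 as organ means on all 6 arrays, with 3 residual and 2.14 prior degrees of freedom and Benjamini-Hochberg adjustment per comparison; the procedure was tested on simulated data. Folds are ratios of geometric means. Array precision is limited by 2 arrays an organ: an exact permutation test of 2 against 2 reaches p = 0.333 at the lowest, so limma alone tests single genes.

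All samples of one replicate number share the code that opens their titles, so the numbers were taken to pair the samples. What the code stands for is not said. Deviations from organ means correlated within a number at 0.152 to 0.197 between organs, and at 0.400 to 0.431 where the mean intensity exceeded 100. The replicate number as a block was an alternative, as were each array left out, quantile normalization, 16 added to each intensity, a filter at the 40th percentile of mean intensity, a trend with a robust prior, any probe set of a gene, and the methods' variance test. Values for every array are given for called genes and for second copies that differ in call, and for some others chosen after their values were seen; up to 3 called genes per list and pair are named. Members, gene lists and marker lists were chosen with earlier results of these data known.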

Additional observations from a re-analysis of the deposited data

How the results depend on the processing

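The 10 called differences, read from the brightest probe set, kept their direction under the block, quantile normalization, 16 added, the trend, the filter where they passed it, and each array left out. Other probe sets of tcf4.S gave log2 differences of -1.50 and -0.43 where the brightest gave 1.82 for liver minus stomach. All 10 stayed called with 16 added to each intensity, 7 of the 7 that remained with the 40th percentile filter, and 9 of 10 each under the trend with a robust prior, quantile normalization and the replicate block. The trend (adjusted p = 0.0734) and quantile normalization (0.0610) ended the call of tcf4.S. The block ended the call of epas1.S between liver and stomach (0.0520), and it left 6, 3, 3 and 6 genes called for pancreas against liver, pancreas against stomach, liver against stomach and the 3 organs, where 4, 3, 3 and 4 were called without it. Counts moved by more than 1.5 times as follows. Pancreas against liver had 7 with the trend and robust prior, and 1 by the methods' rule of an unadjusted p with a ratio over 3. Pancreas against stomach had 7 with 16 added and 5 with the filter. Liver against stomach had 8 with 16 added, 5 with the filter and 6 with the trend. The 3 organs had 12 with 16 added, 7 with the filter, 8 with the trend, and 10 by the methods' unadjusted test but 0 after Benjamini-Hochberg adjustment. There limma called 4 and had 15 with an unadjusted p under 0.05, which is 27.3% against 34.6% of all genes. With 1 array left out the counts ran from 0 to 3, 0 to 3, 0 to 2 and 1 to 5; these fits have fewer arrays. MYC growth genes called between pancreas and liver numbered 4, with 9 to 12 under 16 added, the filter and the trend. Between pancreas and stomach they numbered 6, with 11 under 16 added and under the filter, 13 under the trend and 2 under quantile normalization. The share of all genes called under these settings was not computed. A change in these counts therefore says nothing about bHLH genes or list genes in particular. The cause of these shifts was not tested. No detection calls were given, so low intensities cannot be set against background.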
